A study of Homo sapiens with 6 samples.

Results

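The genes of fatty acid activation and mitochondrial entry described here are *SLC25A20*, *CPT1A*, *CPT2*, *ACSL1*, *ACSL3* and *ACSL4*. They were taken by name, with every probe set that the platform annotation assigns to them. Of these 6 genes 4 had a named probe set, of 9584 named genes on the arrays, with 6 probe sets in all (2 for *ACSL1*, 1 for *CPT1A*, 1 for *SLC25A20* and 2 for *CPT2*) among 16569, and none of the 6 was assigned to another gene as well. All 6 probe sets entered the test, since no filter on low values was applied here. *ACSL3* and *ACSL4*, synthetases known for their preference for unsaturated fatty acids, are not analysed here.

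Long-chain fatty acids are burned in mitochondria only after they have been activated and carried inside. An acyl-CoA synthetase first joins the fatty acid to coenzyme A. CPT1 on the outer mitochondrial membrane then exchanges coenzyme A for carnitine, the carrier encoded by *SLC25A20* moves the acylcarnitine across the inner membrane, and CPT2 on the matrix side gives it back its coenzyme A, after which beta-oxidation can begin. Malonyl-CoA, the product of acetyl-CoA carboxylase, inhibits CPT1 and thereby links entry to fatty acid synthesis. In liver, heart and muscle these genes are known for their response to fasting and to PPAR-type nuclear receptors.

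The arrays came from HEK293T cells, a human embryonic kidney line. In the USF1 group (3 arrays) the cells had been transiently transfected with a plasmid that carries the coding region of *USF1*, a transcription factor that binds E-box sequences, behind a polyhistidine tag, and in the Empty vector group (3 arrays) with the vector alone. RNA was taken 48 hours later in both groups. The cells keep their own *USF1* gene, and the sources used here give neither the share of transfected cells nor whether each array stands for a transfection of its own. The p-values therefore rest on a spread between arrays that may be technical. A lower value in such a bulk sample can mean fewer cells that express the gene or less RNA per cell, and these cannot be told apart.

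Values are the RMA expression values that the authors deposited, on the log2 scale, so that a difference of 1 is a doubling. Array medians lay between 5.883 and 6.004. Differences are USF1 minus Empty vector from limma, with adjustment over all probe sets, and an adjusted p-value under 0.05 is called a change. Such changes were found for 11.9% of all probe sets, with 4.32% higher and 7.60% lower in USF1 cells. Higher values made up 36.2% of these calls, or 56.1% when arrays were set to a common median (which moves every difference up by about 0.069) and 50.4% after a further quantile normalization. Of the HEK293T markers, *PAX8*, *EYA1*, *NEFL*, *NEFM*, *INA* and *VIM* had a named probe set, 6 of 11, and of the 23 markers of other cells only *CPS1* and *ACTN2* did. *CPS1*, a liver enzyme, averaged 4.95 ± 0.15 in USF1 cells and 5.32 ± 0.07 in Empty vector cells (SD, n = 3 each), a difference that limma put at -0.37 (SE 0.10, adjusted p-value = 0.0492) and that lost its call whichever array was left out. *EYA1* (-0.41, adjusted p-value = 0.0211 from limma) and *INA* (-0.39, 0.024) fell. *NEFL* rose at 2 of its 3 probe sets (0.41 and 0.38, adjusted p-value = 0.021 and 0.0312 from limma) and did not pass at its brightest one (0.15). The call of *EYA1* was lost without USF1 replicate 1, USF1 replicate 3 or Empty vector replicate 2. With single arrays left out, the calls of *INA* and *NEFL* were kept only without USF1 replicate 2 or Empty vector replicate 1. *PAX8*, *NEFM*, *VIM* and *ACTN2* did not pass. The part of these markers in the results was not tested. The 1 probe set of *USF1* itself read 4.76, 4.94 and 4.68 in the USF1 arrays and 4.37, 5.08 and 5.15 in the Empty vector arrays, which overlapped (difference -0.071, SE 0.19, adjusted p-value = 0.836 from limma). The sources used here do not say whether its probes lie in the cloned coding region, so it checks neither the group labels nor the level of added *USF1*. The paper reports over-expression at the protein level from a western blot with antibodies to the tag and to USF1.

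*ACSL1* and *CPT1A* were higher and *SLC25A20*, the inner membrane carrier, was lower in cells with added *USF1*. Of the 6 probe sets, 4 changed, namely both of *ACSL1* and the one of *CPT1A* upward and the one of *SLC25A20* downward. Of all probe sets 11.9% changed, 4.32% upward and 7.60% downward. The genes were chosen with earlier results of these data known, so no test compares their count with that share. Both probe sets of *CPT2* were lower in USF1 cells without passing the threshold. The changes were between 1.42-fold and 1.61-fold. In each of the 6 probe sets the groups did not overlap, as in 36.1% of all probe sets. The median difference of all probe sets was -0.065, and the rises ran against this slight downward shift while the falls ran with it. With arrays set to a common median, *SLC25A20* differed by -0.62 and *CPT2* by -0.515 (204263_s_at) and -0.431 (204264_at). *ACSL1* then differed by 0.733 (201963_at) and 0.584 (207275_s_at) and *CPT1A* by 0.578. The same 4 probe sets were called.

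**Figure D1:**
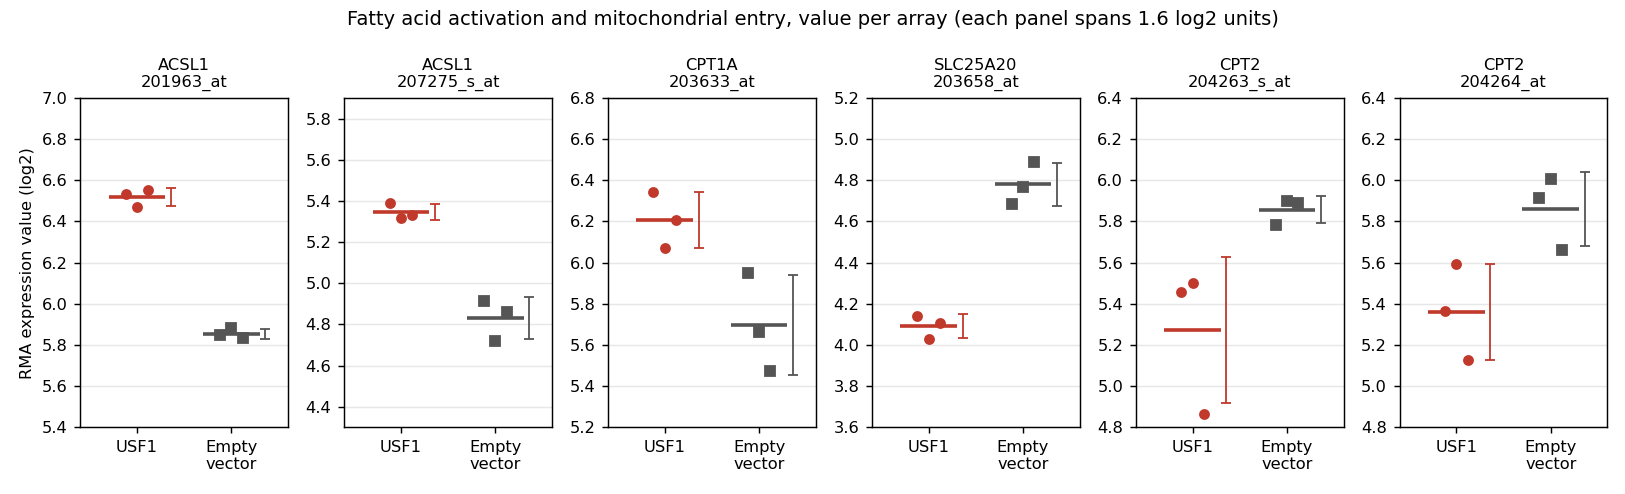
RMA expression value (log2, vertical axis) of each array at the 6 probe sets, USF1 in red on the left and Empty vector in grey on the right of each panel, with the mean (long bar) and SD (error bar) of 3 arrays. Each panel has its own range, and the groups do not overlap in any panel, with the widest gap at *ACSL1* (201963_at, 0.588) and the narrowest at *CPT2* (204264_at, 0.0672).

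*ACSL1*, the long-chain acyl-CoA synthetase that is prominent in fat, liver and heart, was higher in USF1 cells at both of its probe sets. Its probe set 201963_at read 6.53, 6.47 and 6.56 in the USF1 arrays, against 5.85, 5.88 and 5.83 in the Empty vector arrays. The 3 arrays of each group lay close together and the groups were well apart. The means were 6.52 ± 0.04 in USF1 cells and 5.86 ± 0.02 in Empty vector cells (SD, n = 3 each), a log2 difference of 0.66 (SE 0.08, 95% interval 0.48 to 0.85, adjusted p-value = 0.0039 from limma), or 1.58-fold. The other *ACSL1* probe set, 207275_s_at, read 5.39, 5.32 and 5.33 in the USF1 arrays and 4.91, 4.72 and 4.86 in the Empty vector arrays. It was 1.43-fold higher in USF1 cells, with a log2 difference of 0.52 (SE 0.09, 95% interval 0.31 to 0.72, adjusted p-value = 0.0121 from limma). Over the 6 arrays, which include the difference between the groups, these probe sets had a Pearson r of 0.963. The call of 201963_at was kept without each array in turn, and that of 207275_s_at was lost without USF1 replicate 1 (adjusted p-value = 0.0624 from limma) and without USF1 replicate 3 (0.0572).

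*CPT1A*, the liver form of the outer membrane acyltransferase and the step that malonyl-CoA holds back, was higher in USF1 cells too, but with a wider spread. Its single probe set, 203633_at, read 6.34, 6.07 and 6.21 in the USF1 arrays, against 5.95, 5.66 and 5.47 in the Empty vector arrays. The groups did not overlap, although Empty vector replicate 1 came within 0.118 of the lowest USF1 array. The means were 6.21 ± 0.14 in USF1 cells and 5.70 ± 0.24 in Empty vector cells (SD, n = 3 each), a log2 difference of 0.51 (SE 0.13, 95% interval 0.20 to 0.82, adjusted p-value = 0.0437 from limma), or 1.42-fold. *CPT1A* was still called without USF1 replicate 2 or without Empty vector replicate 1. Its call was lost without any one of the other arrays, where the difference lay between 0.40 and 0.51 and the adjusted p-value between 0.098 and 0.147 from limma.

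*SLC25A20*, the carnitine/acylcarnitine translocase, was the one gene of the 4 that fell past the threshold. Its probe set, 203658_at, read 4.14, 4.03 and 4.11 in the USF1 arrays, against 4.68, 4.77 and 4.89 in the Empty vector arrays. The highest USF1 array was 0.542 below the lowest Empty vector array. The log2 difference was -0.69 (SE 0.09, 95% interval -0.89 to -0.48, adjusted p-value = 0.00528 from limma), so that the Empty vector value was 1.61 times the USF1 value. This is a dim probe set, at the 13.4th percentile of all probe sets by its mean. Without single arrays the difference ranged between -0.74 and -0.63 and was called each time.

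*CPT2*, which restores the acyl-CoA on the matrix side, was lower in USF1 cells at both of its probe sets, just short of the threshold. Probe set 204263_s_at read 5.46, 5.50 and 4.87 in the USF1 arrays and 5.78, 5.90 and 5.89 in the Empty vector arrays. USF1 replicate 3 lay well below the other USF1 arrays, and all of them lay below the Empty vector arrays. The log2 difference was -0.58 (SE 0.16, 95% interval -0.95 to -0.21, adjusted p-value = 0.052 from limma). Without USF1 replicate 3 it was -0.38 (adjusted p-value = 0.0999 from limma), a move by over 1.5 times. Probe set 204264_at read 5.36, 5.59 and 5.13 in the USF1 arrays and 5.92, 6.01 and 5.66 in the Empty vector arrays, so that the groups were only 0.0672 apart. Its log2 difference was -0.50 (SE 0.14, 95% interval -0.82 to -0.18, adjusted p-value = 0.0525 from limma). Both probe sets had an unadjusted p-value near 0.006 (0.00637 and 0.00646), and USF1 replicate 3 was the lowest array at each. They passed without USF1 replicate 2, at adjusted p-values of 0.0409 and 0.0310 from limma, and 204263_s_at also without Empty vector replicate 1 (0.0421). The Pearson r between them over the 6 arrays was 0.893.

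**Figure D2:**
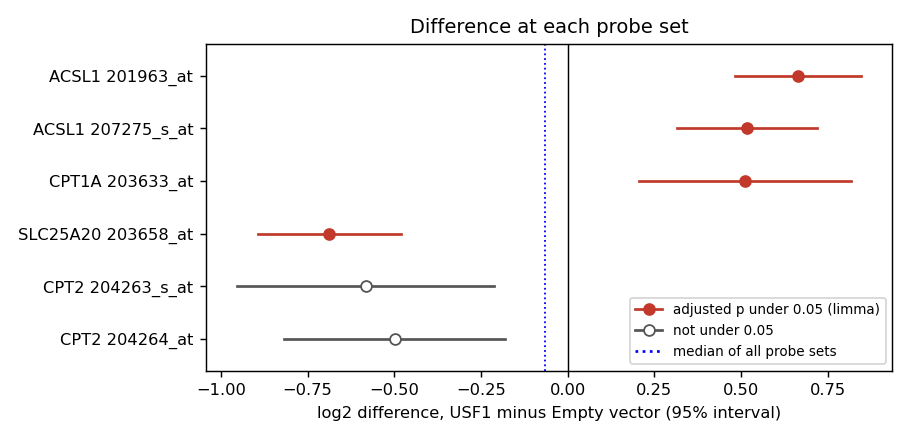
Log2 difference between USF1 and Empty vector (horizontal axis) with its 95% interval for each probe set (vertical axis), red and filled at an adjusted p-value under 0.05 (limma), and the median of all probe sets as a dotted line. *ACSL1* and *CPT1A* lie right of 0, *SLC25A20* and *CPT2* left of it, and no interval reaches 0. The intervals are not adjusted for the number of probe sets, and those of *CPT2* belong to differences that did not pass the adjusted threshold.

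The arrays differed in a sign of RNA quality, which moved in part with the groups and whose part in the results was tested only by leaving arrays out. The actin control probe sets, which compare the 5' end of the transcript with its 3' end, gave a log2 value of -0.529, -0.681 and -0.493 in the USF1 arrays and of -1.34, -1.04 and -0.516 in the Empty vector arrays. Empty vector replicates 1 and 2 were thus lower than every other array, and Empty vector replicate 3 lay among the USF1 arrays. The *GAPDH* controls gave -0.345, -0.322 and -0.333 in the USF1 arrays and -0.582, -0.316 and -0.256 in the Empty vector arrays, where only Empty vector replicate 1 was low. With Empty vector replicate 3 as the only control array, a comparison chosen after the data were seen in which that array is assumed to vary like the USF1 arrays, *ACSL1* differed by 0.68 at 201963_at (adjusted p-value = 0.0401 from limma) and *SLC25A20* by -0.80 (0.0252), and both were still called. *CPT1A* differed by 0.73 (0.0514), *ACSL1* at 207275_s_at by 0.49 (0.0989) and *CPT2* by -0.62 (0.227) and -0.30 (0.424), and none of these passed. For 204264_at of *CPT2*, where Empty vector replicate 3 is the lowest control array, this is a move by over 1.5 times.

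**Figure D3:**
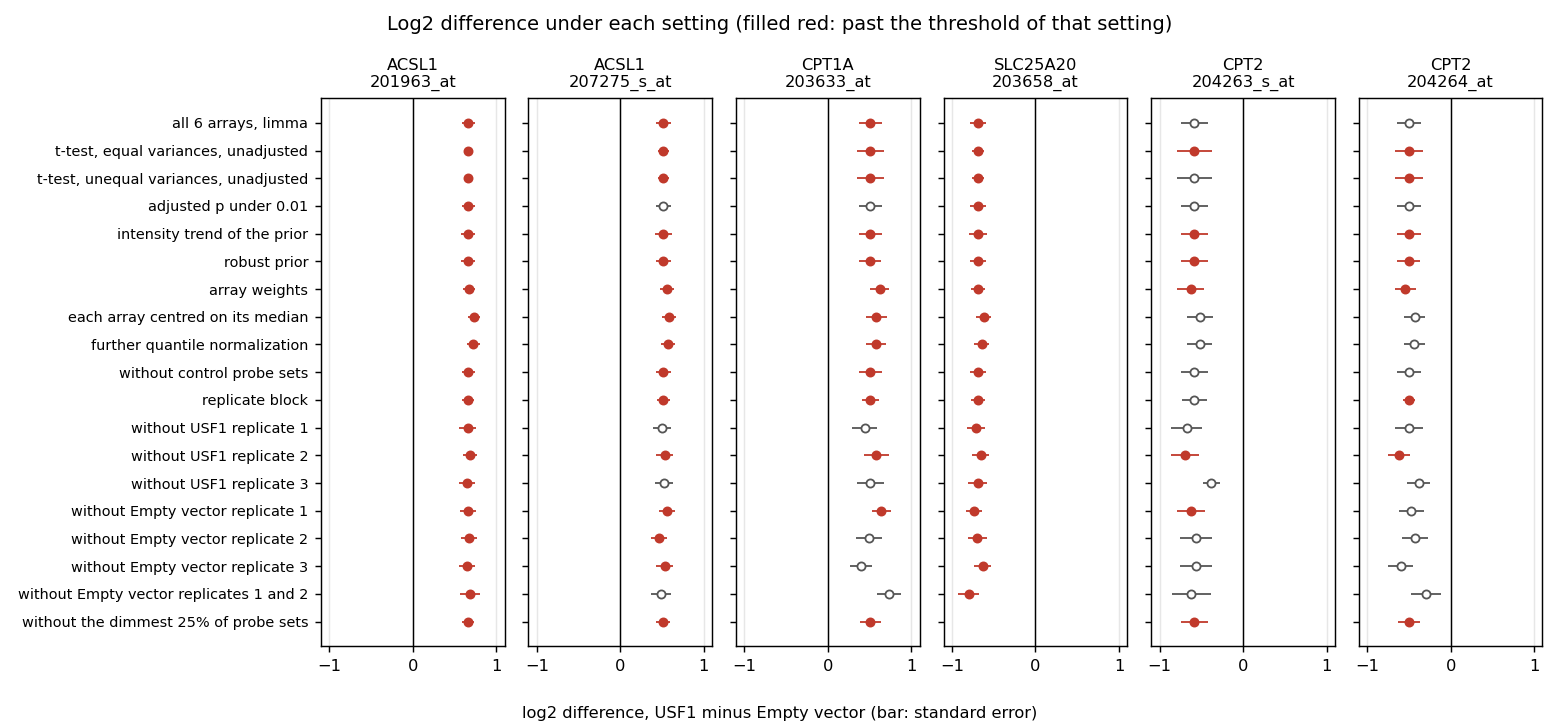
Log2 difference (horizontal axis, with its standard error) of the 6 probe sets under each setting shown (vertical axis), red and filled where it passes the threshold of that setting. All points keep the side of 0 that they have with all 6 arrays. *ACSL1* at 201963_at and *SLC25A20* are filled in every setting shown in which they were measured. The methods' test after Benjamini-Hochberg adjustment is not shown. There, *SLC25A20* was not called, and *ACSL1* at 201963_at was called with equal but not with unequal variances. *SLC25A20* has no point without the dimmest 25% of probe sets because it is one of them.

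As *USF1* binds E-box sequences, the promoters were searched for them. Sequences are the RefSeq windows of GRCh38.p14, which reach from 250 bases before a transcript start to 50 after it. The core E-box that USF proteins prefer, CACGTG, was in none of the windows of the 4 measured genes, and 7.26% of all 35116 windows hold it. The looser form CANNTG, which includes CACGTG, is in 68.7% of all windows. Both motifs are palindromes and were searched once for both strands. CANNTG occurred 3 times in the *SLC25A20* window (at bases -249, -59 and 25 from the start) and once in that of *CPT1A* (at -183). It did not occur in that of *CPT2* or in the first of the 5 windows listed for *ACSL1*, and it occurred between 1 and 5 times in the other 4. The hexamer AGGTCA, of which PPAR-type receptors bind a pair, was searched on both strands. No window of the 4 genes held it, and 13.8% of all windows hold it. A window without a motif says only that these letters are not in it. The 250 bases upstream of the start are shown for each of the 4 genes, with CANNTG in capitals, 5′ to 3′ on the strand of the gene. For *ACSL1* this is only the first of its 5 windows, the one without CANNTG. The stretches shown are chr4:184825969-184826218 (minus strand) for *ACSL1*, chr11:68844278-68844527 (minus strand) for *CPT1A*, chr3:48898883-48899132 (minus strand) for *SLC25A20* and chr1:53196574-53196823 (plus strand) for *CPT2*.
ACSL1: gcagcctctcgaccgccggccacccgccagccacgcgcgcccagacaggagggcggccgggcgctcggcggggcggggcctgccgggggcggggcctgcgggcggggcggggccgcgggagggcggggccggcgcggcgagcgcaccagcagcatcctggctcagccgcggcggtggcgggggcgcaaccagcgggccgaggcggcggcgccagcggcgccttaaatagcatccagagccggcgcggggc
CPT1A: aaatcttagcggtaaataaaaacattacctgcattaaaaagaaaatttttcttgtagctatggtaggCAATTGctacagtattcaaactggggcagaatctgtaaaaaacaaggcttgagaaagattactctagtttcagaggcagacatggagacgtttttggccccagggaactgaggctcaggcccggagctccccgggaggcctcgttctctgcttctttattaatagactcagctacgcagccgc
SLC25A20: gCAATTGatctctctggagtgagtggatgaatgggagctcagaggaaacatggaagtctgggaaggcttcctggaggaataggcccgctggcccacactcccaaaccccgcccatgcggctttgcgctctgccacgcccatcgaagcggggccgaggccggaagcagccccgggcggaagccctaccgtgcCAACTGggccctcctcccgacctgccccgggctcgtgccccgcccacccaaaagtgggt
CPT2: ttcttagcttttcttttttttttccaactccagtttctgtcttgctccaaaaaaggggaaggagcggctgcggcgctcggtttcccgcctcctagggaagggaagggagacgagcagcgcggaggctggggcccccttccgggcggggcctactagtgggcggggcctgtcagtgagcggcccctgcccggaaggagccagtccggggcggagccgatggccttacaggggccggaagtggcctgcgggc

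The other acyl-CoA synthetases mostly did not change, and those that did were 2 fatty acid transport proteins, which take up and activate fatty acids. At the brightest probe set of each gene, 5.19% of all named genes rose and 8.89% fell. Of 18 further synthetases 11 had a named probe set, and 2 of them rose and none fell (2 higher and 0 lower at an unadjusted p-value under 0.05), with a median difference of -0.019 beside -0.079 for all named genes. *SLC27A6*, a transporter known from heart, read 5.44, 5.24 and 5.39 in the USF1 arrays and 4.28, 4.18 and 3.33 in the Empty vector arrays, where replicate 3 was far below the others. Its log2 difference was 1.43 (SE 0.22, adjusted p-value = 0.00927 from limma). *SLC27A2*, a very long-chain synthetase of liver and kidney, read 6.074, 6.004 and 6.099 in the USF1 arrays and 5.594, 5.312 and 5.214 in the Empty vector arrays at 205769_at. It rose by 0.69 there (SE 0.11, adjusted p-value = 0.00997 from limma), a call lost only without USF1 replicate 3, and by 0.96 at 205768_s_at (SE 0.13, adjusted p-value = 0.00612). *SLC27A1*, *SLC27A3*, *SLC27A4* and *SLC27A5* differed by 0.12, -0.14, 0.025 and -0.019 and did not pass, nor did any acetyl-CoA synthetase.

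No other gene of carnitine handling was called by limma at its brightest probe set. Of 12 such genes 7 were measured, and the median difference was 0.056. At an unadjusted p-value under 0.05 from limma, 2 were higher and 1 lower. By the methods' test, unadjusted, 1 was higher. Of all 16569 probe sets, 4265 passed that test with equal and 3419 with unequal variances. Beside that share, 1 of 7 does not set the list apart. No such share was taken for the unadjusted limma counts. *CPT1C*, the CPT1 form of brain, differed by -0.029 (SE 0.13), and the peroxisomal acyltransferase *CROT* by -0.17 (SE 0.11). *SLC22A5*, which brings carnitine into the cell, had a difference of 0.30 at its brighter probe set (SE 0.09, adjusted p-value = 0.0589 from limma) and of 0.029 at the other. *TMLHE*, the first enzyme of carnitine synthesis, differed by -0.41 (SE 0.13, adjusted p-value = 0.0787 from limma). *SLC25A29*, a mitochondrial carrier of basic amino acids once described as a second acylcarnitine carrier, rose by 0.49 at its dimmer probe set (SE 0.12, adjusted p-value = 0.0309 from limma), a call kept only without USF1 replicate 2 and without Empty vector replicate 1 in turn, and differed by 0.26 at its brighter one (adjusted p-value = 0.152). Among acyl-CoA binding proteins and thioesterases, 10 of 16 genes were measured and 0 changed by limma. At an unadjusted p-value under 0.05 from limma, 1 of these binding proteins and thioesterases was higher and 2 were lower. By the methods' test, unadjusted, 1 was higher, and 1 of 10 does not set them apart from all probe sets either. Their differences lay between -0.43 for the thioesterase *ACOT13* and 0.33 for *DBI*, the acyl-CoA binding protein.

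Among genes that set malonyl-CoA and the nuclear regulators of this pathway, *PRKAB1* and *ACACA* were called at their brightest probe sets. Of 22 genes 19 were measured, and 2 fell and none rose. Beside the 8.89% of all named genes that fell, this count does not set the list apart. At an unadjusted p-value under 0.05 from limma, 6 were lower and 0 higher. By the methods' test, unadjusted, 5 were lower with equal and 3 with unequal variances, and 0 were higher. No share of all named genes was taken for these unadjusted counts. The median difference was -0.11, beside -0.079 for all named genes. *PRKAB1*, a beta subunit of the AMP-activated kinase that phosphorylates acetyl-CoA carboxylase, read 5.89, 6.01 and 5.79 in the USF1 arrays and 6.35, 6.43 and 6.44 in the Empty vector arrays at 201834_at. It fell by 0.52 there (SE 0.09, adjusted p-value = 0.0131 from limma) and by 0.48 at 201835_s_at (SE 0.09, adjusted p-value = 0.0187). *ACACA*, which makes malonyl-CoA, read 6.65, 6.61 and 6.40 in the USF1 arrays and 7.10, 6.98 and 6.95 in the Empty vector arrays at 212186_at, where it fell by 0.46 (SE 0.10, adjusted p-value = 0.0231 from limma), and its other probe set differed by -0.40 without passing. These calls of *PRKAB1* at 201834_at and of *ACACA* were lost without USF1 replicate 1, USF1 replicate 3 or Empty vector replicate 2, and that of *PRKAB1* at 201835_s_at without USF1 replicate 1, USF1 replicate 3 or Empty vector replicate 3. *ACACB*, the carboxylase at the mitochondrial surface, differed by -0.29 and -0.51 at its probe sets and did not pass (adjusted p-value = 0.0899 and 0.0668 from limma), and *MLYCD*, which degrades malonyl-CoA, by -0.0061. The kinase subunit *PRKAA2* passed only at 207709_at, the dimmest of its 4 probe sets, with -0.50 (adjusted p-value = 0.0144 from limma, lost without USF1 replicate 1 or Empty vector replicate 2), and the brightest differed by -0.044. *PPARA*, the nuclear receptor of fatty acid oxidation, differed by -0.23 (SE 0.12) and -0.30 (SE 0.09) and did not pass.

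The enzymes that follow CPT2 were not called. Of 21 genes of mitochondrial beta-oxidation 19 were measured, and 0 were called by limma. Their median difference was -0.075, beside -0.079 for all named genes. At an unadjusted p-value under 0.05 from limma, 0 were higher and 3 lower. By the methods' test, unadjusted, 2 were lower with equal and 1 with unequal variances. Beside the 4265 and 3419 of all 16569 probe sets that pass it, these counts do not set the list apart. *ACADVL*, the very long-chain dehydrogenase that takes over the acyl-CoA from CPT2, differed by 0.13 (SE 0.09), and *ACADM*, which oxidizes medium chains, by 0.16 (SE 0.12). *HADHA*, a subunit of the trifunctional protein, lay between -0.17 and 0.11 at its 3 probe sets. The lowest were *ACADSB*, a dehydrogenase of branched short chains, at -0.42 (SE 0.12, adjusted p-value = 0.0541 from limma), the electron transfer subunit *ETFB* at -0.41 (SE 0.15) and *DECR1*, which handles unsaturated fatty acids, at -0.34 (SE 0.13). Whether the change of *ACSL1*, *CPT1A* or *SLC25A20* differs from that of these enzymes was not tested.

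**Figure D4:**
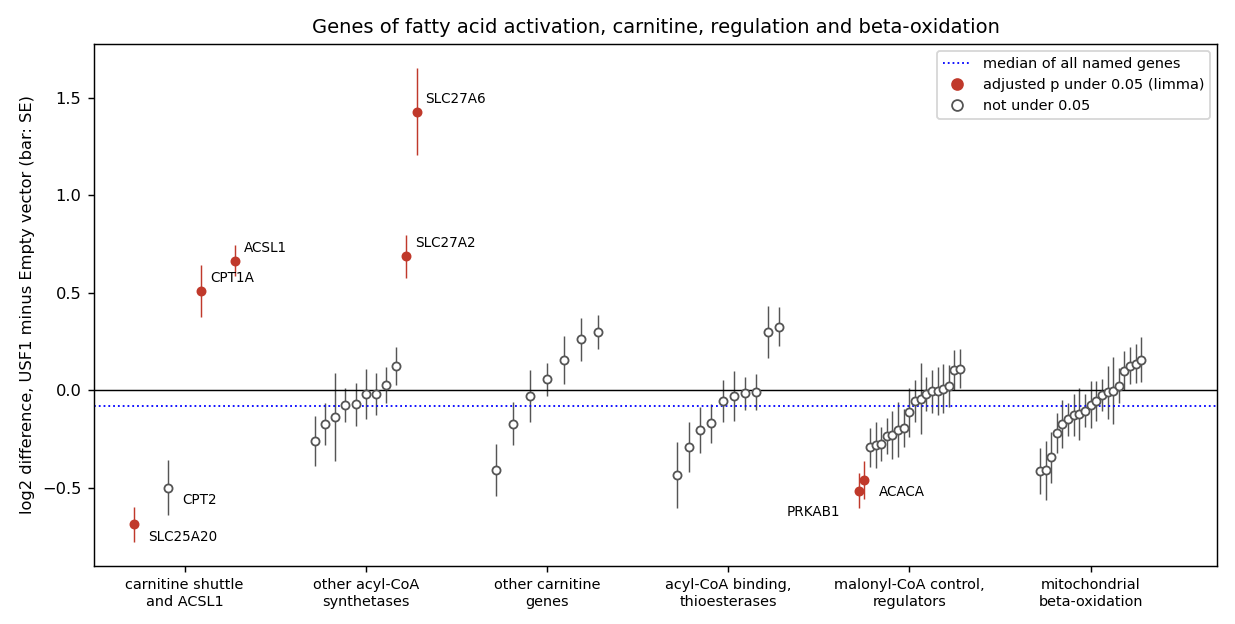
Log2 difference between USF1 and Empty vector with its standard error (vertical axis) for each measured gene of 6 groups at its brightest probe set (horizontal axis, sorted within a group), red and filled at an adjusted p-value under 0.05 (limma). Filled points stand above 0 for *ACSL1*, *CPT1A*, *SLC27A2* and *SLC27A6* and below 0 for *SLC25A20*, *PRKAB1* and *ACACA*, and the beta-oxidation group has none.

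The genes with the pattern most like each of the 4 were found by Pearson r of the log2 values over the 6 arrays among 9583 other named genes, as a description. For *ACSL1* they were *RMDN3* (0.9989) and *NT5C3B* (0.9983), for *CPT1A* *ENAH* (0.9981) and *EAF2* (0.9971), for *SLC25A20* *FANCG* (0.9968) and *LINC01547* (0.9956), and for *CPT2* *TRAF3IP1* (0.9995) and *TGS1* (0.9976). The points share the difference between the groups, and between 446 and 1116 genes had an r over 0.9 with each of the 4. None of the closest genes belongs to the lists of fatty acid metabolism used here.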

How the data were processed

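Expression was measured on Affymetrix arrays in 3 USF1 and 3 Empty vector samples of HEK293T cells, each assigned from its title. The deposited values are log2 expression values. Per the paper's methods, the authors ran justRMA (background subtraction and quantile normalization) with mis-targeted and nonspecific probes masked, dropped probe sets with few probes or mostly absent calls, and applied ComBat. The submitters' processing notes name R 2.8.0, and the sources used here do not name the batches. Raw array images were not used here.

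Gene names are those of the platform annotation, in which 15099 of the 16569 probe sets have 1 gene symbol, 570 have several and 900 have none. Probe sets with several genes named no gene. The USF1 minus Empty vector difference was fitted over all probe sets with lmFit and eBayes of limma 3.58.1 (R 4.3.3), with Benjamini-Hochberg adjustment and no covariate, and intervals use the 8.53 moderated degrees of freedom. The number of arrays limits the precision, and p-values rest on the spread that ComBat left. The procedure was tested on simulated data. Promoter windows come from RefSeq (GRCh38.p14).

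The genes and gene lists were chosen with earlier results of these data known. By rule, the named genes were the genes described with every probe set, list genes that passed at their brightest probe set, the 2 genes most like each by correlation, and *USF1*. Other list genes were named after their values were seen. The alternatives were t-tests with equal and with unequal variances, other thresholds, priors, weights, scalings and filters, a replicate block and leaving out arrays. A comparison of protein sequences was not made.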

Additional observations from a re-analysis of the deposited data

How the results depend on the processing

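No probe set of *ACSL1*, *CPT1A*, *SLC25A20* or *CPT2* changed direction under any alternative, and *ACSL1* at 201963_at and *SLC25A20* stayed called whichever single array was left out. Of the 6 probe sets, 4 were called by limma. A t-test unadjusted at 0.05 called 6 with equal variances and 5 with unequal ones, but 1 and 0 after Benjamini-Hochberg adjustment. The methods name Student's t-test, and the degrees of freedom that the authors list are fractional, as the unequal-variance form gives. With limma, 2 were called at an adjusted p-value under 0.01, and 2 to 6 without single arrays (2 without USF1 replicate 1 or 3, 6 without USF1 replicate 2). Over all probe sets 1974 were called, 4265 and 3419 by these t-tests unadjusted, 160 and 1 adjusted, 352 at 0.01, 3688 with array weights and 369 to 2222 without single arrays (leaving out USF1 replicate 3 gave 369, USF1 replicate 1 gave 466, Empty vector replicate 2 gave 574 and Empty vector replicate 3 gave 1110). Of 66 measured list genes 4 were called at the brightest probe set, beside 5.19% of all named genes called higher and 8.89% called lower. By the t-tests unadjusted the count was 11 and 8, beside 4265 and 3419 of all 16569 probe sets. It was 0 and 0 adjusted, 2 at 0.01, 9 with array weights, 6 counting any probe set and 1 to 6 without single arrays (1 without USF1 replicate 3, 2 without USF1 replicate 1 or Empty vector replicate 2, 6 without Empty vector replicate 1). The t-tests after Benjamini-Hochberg adjustment called only *ACSL1* at 201963_at, with equal variances, and *SLC25A20* was called by neither. At 0.01, *CPT1A* (0.51) and *ACSL1* at 207275_s_at (0.52) were no longer called. *CPT2* at 204263_s_at passed with the equal-variance t-test, an intensity trend of the prior, a robust prior and without the dimmest probe sets (each -0.58) and with array weights (-0.63), and at 204264_at with both unadjusted t-tests, the same priors and filter (each -0.50) and array weights (-0.54). Without single arrays the differences ranged over -0.70 to -0.38 and -0.62 to -0.38 for *CPT2*, 0.40 to 0.64 for *CPT1A* and 0.46 to 0.56 for *ACSL1* at 207275_s_at. Without Empty vector replicates 1 and 2, chosen after the data were seen, 277 probe sets, 2 of the 6 and 2 list genes were called (0.73 for *CPT1A*, 0.49 for *ACSL1* at 207275_s_at). The causes were not tested.

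The titles tie arrays of one number by that number alone and do not say whether they were handled together. The correlation of their deviations from the group means was 0.0958, 0.246 and 0.129 for replicates 1, 2 and 3. Between arrays of unlike numbers it was lower, from -0.171 to 0.0246. Whether the arrays are paired was not tested, and the main fit treats them as unpaired. With a replicate block 2875 probe sets, 5 of the 6 and 9 list genes were called, and *CPT2* at 204264_at passed (-0.50, adjusted p-value = 0.0196 from limma).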
